A study of Homo sapiens with 4 samples.

Results

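The respiratory chain is described here through the nuclear genes of its complexes and of the factors that assemble them, in MOLM-14, a human acute myeloid leukemia cell line, after treatment with rapamycin, an inhibitor of mTORC1. Members were the rows of the expression table whose Entrez gene number belongs to a protein-coding gene with a symbol of the NDUF, SDH (A to D or AF), UQCR, UQCC, ATP5 or COX-plus-digit families, or to CYC1 or CYCS. This gave 110 of 25582 rows: 44 for complex I, 7 for complex II, 16 for complex III, 25 for complex IV and 18 for complex V. The assembly factors numbered 28 and the subunits, with the ATP synthase inhibitor ATP5IF1, numbered 82. Another 7 nuclear genes that the rule covers, among them SDHA, CYCS, COX6A1 and NDUFC2, were not analysed here, and neither were the subunits encoded in mitochondrial DNA.

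The groups were 2 arrays of cells given 10 nM rapamycin for 24 hours and 2 arrays of control cells. The protocols in the labels also describe MOLM-14 cells that carry a doxycycline-inducible short hairpin RNA, scrambled or against PIM2, kept with 200 ng/ml doxycycline for 72 hours. They do not say which hairpin, if any, these 4 cultures carried, so a difference in hairpin between the groups, if there was one, cannot be told apart from the agent. Values are the authors' log2 expression values, in which 1 unit is a 2-fold difference. Differences are read between arrays for 1 gene. Levels of different genes enter a filter on low values, sums over marker lists and the choice of genes at a similar level. The design text calls the arrays biological replicates without stating separate cultures, so the p-values reflect how far these arrays vary, possibly for technical reasons alone.

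The respiratory chain passes electrons from NADH (complex I) and succinate (complex II) through ubiquinone to complex III, then through cytochrome c to complex IV, which reduces oxygen. Complexes I, III and IV pump protons across the inner mitochondrial membrane, and complex V, the ATP synthase, makes ATP as protons flow back. Most subunits are encoded in the nucleus, and mTORC1 is known to promote their expression, through YY1 and PGC-1alpha at the level of transcription and through 4E-BP at the level of translation. Acute myeloid leukemia cells are known to depend on this chain for energy.

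The promoters of 4 members are shown because, of the 5 members with the lowest p-values below, these hold a motif of a factor known to act on respiratory chain genes. The motifs searched, on both strands, were GCGC, any base and TGCGC in a row for NRF1, CCGGAAGT for ETS factors such as GABPA, and AAGATGGC for YY1. No printed match overlaps one of another motif. The windows run from 250 bases before to 50 bases after the gene start in RefSeq (GRCh38.p14). Both YY1 matches lie after the gene start, at bases 261 to 268 of the SDHB window and 272 to 279 of the NDUFS4 window. Capitals mark the matches, and the sequences run 5′ to 3′ on the strand of the gene.
COX5B, chr2:97645812-97646111, plus strand, ETS: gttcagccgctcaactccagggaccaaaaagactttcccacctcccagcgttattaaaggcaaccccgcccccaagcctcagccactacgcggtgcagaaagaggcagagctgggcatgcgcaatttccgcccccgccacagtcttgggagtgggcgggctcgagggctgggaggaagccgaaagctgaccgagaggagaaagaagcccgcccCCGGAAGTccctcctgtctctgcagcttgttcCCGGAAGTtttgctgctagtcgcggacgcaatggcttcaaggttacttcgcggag
NDUFA12, chr12:95003648-95003947, minus strand, NRF1: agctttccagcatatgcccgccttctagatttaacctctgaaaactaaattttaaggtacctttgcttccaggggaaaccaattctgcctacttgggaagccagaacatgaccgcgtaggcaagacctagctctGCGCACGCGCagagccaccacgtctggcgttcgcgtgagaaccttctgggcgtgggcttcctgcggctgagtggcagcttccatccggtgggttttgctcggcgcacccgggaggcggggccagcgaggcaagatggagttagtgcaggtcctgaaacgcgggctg
SDHB, chr1:17053983-17054282, minus strand, YY1: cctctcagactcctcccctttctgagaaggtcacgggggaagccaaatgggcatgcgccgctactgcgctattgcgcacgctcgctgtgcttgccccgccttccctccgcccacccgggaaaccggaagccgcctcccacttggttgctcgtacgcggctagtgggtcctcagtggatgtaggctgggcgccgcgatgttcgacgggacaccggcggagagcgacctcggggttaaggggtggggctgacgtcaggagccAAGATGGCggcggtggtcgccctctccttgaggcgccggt
NDUFS4, chr5:53560389-53560688, plus strand, YY1: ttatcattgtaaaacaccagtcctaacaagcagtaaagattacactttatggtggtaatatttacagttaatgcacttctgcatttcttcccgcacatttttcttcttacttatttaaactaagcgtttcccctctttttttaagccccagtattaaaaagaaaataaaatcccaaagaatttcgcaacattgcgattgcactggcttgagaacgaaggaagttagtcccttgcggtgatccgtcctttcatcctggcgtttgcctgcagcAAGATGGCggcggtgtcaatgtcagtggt

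The motifs were found in a larger share of members than of all genes, without a test of that difference. A window was matched for 88 members among the tested genes, of which 23 (26.1%) held the NRF1 motif, 14 (15.9%) the ETS motif and 13 (14.8%) the YY1 motif. Over all 10450 protein-coding genes tested with a window, the shares were 11.0%, 8.44% and 5.19%. In COX5B the ETS motif was present at 2 places. Among members, the median log2 fold change (rapamycin minus control) was -0.06 with the NRF1 motif and -0.11 without it, -0.14 with the ETS motif and -0.06 without it, and -0.07 with the YY1 motif and -0.11 without it. A match is a description and does not show that a factor binds there.

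The arrays were alike over all 25582 rows. The rapamycin arrays correlated at 0.9940 with each other and the control arrays at 0.9957. Rapamycin replicate 2 stood farthest from the controls, at 0.9929 and 0.9924, while rapamycin replicate 1 stood at 0.9943 and 0.9941. All 9 myeloid markers examined, CD33 and SPI1 among them, passed the filter on low values (mean of at least 4.86 log2 units, the 40th percentile of all rows), and 0 of 4 T cell markers did. Among the markers of other cell types 3 of 4 for B cells, 2 of 4 erythroid, 2 of 4 epithelial and 2 of 4 fibroblast genes also passed. Summed log2 values of the epithelial list ran from 22.0 to 23.4 on the rapamycin arrays, against 22.4 to 22.9 on the control arrays. Its members EPCAM and CDH1 missed the filter, and KRT8 and KRT18 lay a median of 0.77 higher on rapamycin replicate 2 than on replicate 1. The part of this in the differences between the rapamycin arrays below was not tested.

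No member passed the test for a difference between rapamycin and control, and most had a log2 fold change slightly below 0. Of the 106 members tested, 0 rose and 0 fell at an adjusted p under 0.05 in limma, fitted on 15099 genes, where 1.26% of all genes were called (0.417% higher and 0.841% lower). At an unadjusted p under 0.05, 14 members (13.2%) were lower and 3 (2.83%) higher, against 8.24% and 7.19% of all genes. The log2 fold change was below 0 in 74 members (69.8%), against 46.9% of all genes tested, and its median was -0.07 in members and 0.01 in all genes. Both rapamycin arrays lay below both control arrays in 38 members (35.8%), against 21.9% of all genes. They lay above both in 8 members (7.55%), against 24.8% of all genes. With each array centred on its median these counts were 45 and 4 members, against 25.4% and 19.0% of all genes, and after a repeated quantile normalization 35 and 11, against 22.5% and 24.0%.

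In cells lysed in bulk, fewer cells of a kind and less RNA per cell cannot be told apart. A member's log2 fold change had a median standard error of 0.10, and its 95% interval reached a median of 0.23 to either side. For 95 of the 106 members the 95% interval of the limma fit lay inside a 1.5-fold change in either direction (0.58 on the log2 scale). The same held for 13312 of all 15099 genes tested, a similar share. The calls depended on which rapamycin array was kept. Without rapamycin replicate 1, 7 members were lower (NDUFV2, COX11, UQCRB, NDUFB6, NDUFA12, COX5B and SDHB) and 1 higher (ATP5F1D), with 9.13% of all genes called. Without rapamycin replicate 2, 3 members were lower (COX7B, COX5B and NDUFS4) and 0 higher, with 2.05% of all genes called. COX5B was the 1 member in both sets. Both fits leave rapamycin with 1 array, which is assumed to vary as the controls do. Without control replicate 2, which leaves 1 control array, the median log2 fold change was -0.07 in members and 0.01 in all genes.

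**Figure D1:**
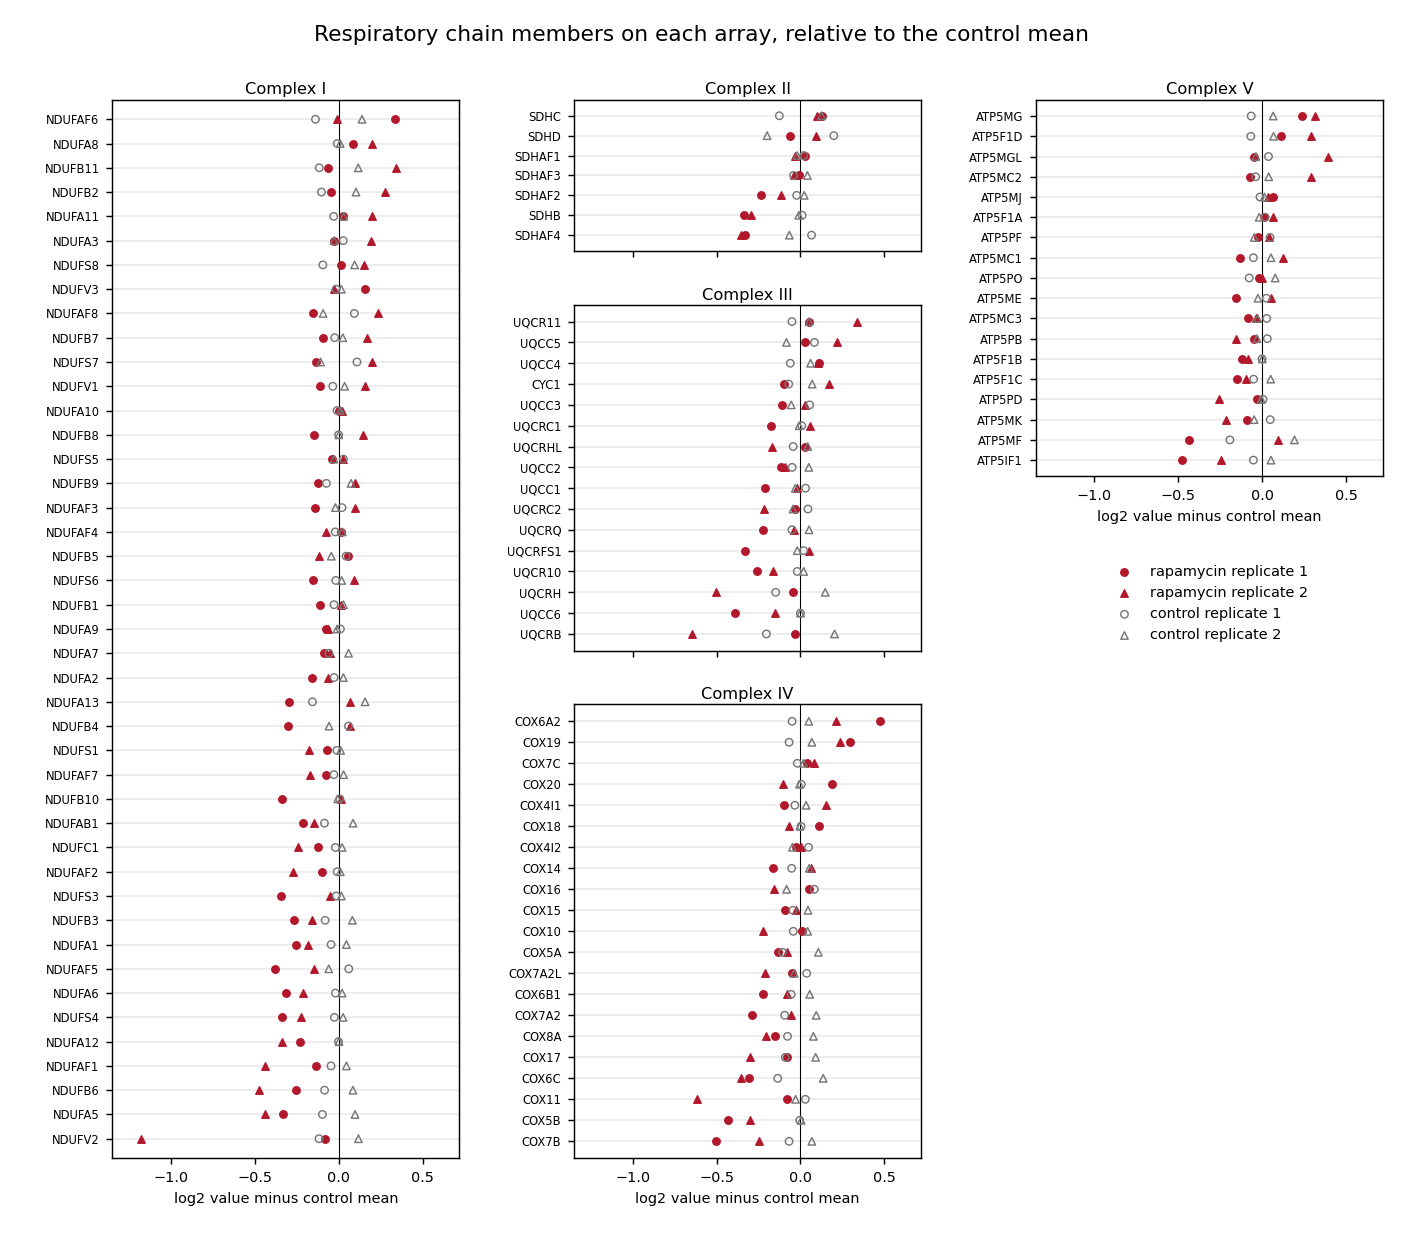
Each row is a member tested, all but 1 of the 106, grouped by complex and ordered by log2 fold change, with its value on each rapamycin array (filled red, circle for replicate 1 and triangle for replicate 2) and each control array (open grey) as the difference from the control mean in log2 units. Most rapamycin points lie within 0.5 of the control mean, and the value of NDUFV2 on rapamycin replicate 2 lies at -1.18.

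Complex I, the NADH dehydrogenase, had 31 of 44 members with a log2 fold change below 0 and a median of -0.07, which was -0.04 without rapamycin replicate 1 and -0.12 without rapamycin replicate 2. Both rapamycin arrays lay below both controls in 18 members and above them in 1 (NDUFA8), against 21.9% and 24.8% of all genes. The 29 accessory subunits held all 6 complex I members with an unadjusted p under 0.05, each lower, and 8.24% of all genes were lower at that p. NDUFA12, an accessory subunit of the arm that takes electrons from NADH, had 10.28 and 10.17 log2 units on the rapamycin arrays, against 10.51 and 10.51 on the control arrays. The control values of NDUFA12 were almost equal, and the groups did not overlap. Its log2 fold change was -0.28 (SE 0.07, limma adjusted p = 0.0951). NDUFS4, an accessory subunit of the same arm whose loss causes Leigh syndrome, had 9.48 and 9.59 with rapamycin, against 9.79 and 9.84 in controls (log2 fold change -0.28, adjusted p = 0.12). The groups of NDUFS4 did not overlap, and its difference was close to that of NDUFA12.

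Among the other accessory subunits, NDUFA5 had 6.77 and 6.65 log2 units with rapamycin, against 7.00 and 7.19 in controls (log2 fold change -0.39, adjusted p = 0.157). NDUFB6, of the membrane arm, had 6.96 and 6.74 with rapamycin, against 7.13 and 7.30 in controls (log2 fold change -0.37, adjusted p = 0.189). NDUFA6 had 8.98 and 9.08 with rapamycin, against 9.28 and 9.32 in controls (log2 fold change -0.26, adjusted p = 0.153). In each of these subunits both rapamycin arrays were below both control arrays. NDUFA8, the subunit with the highest log2 fold change of complex I, had 6.39 and 6.50 with rapamycin, against 6.29 and 6.31 in controls (0.14, adjusted p = 0.612).

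NDUFV2, a core subunit with an iron-sulfur cluster next to the NADH site, had the lowest log2 fold change of all members, and 1 array set it. It measured 6.27 and 5.17 log2 units on the rapamycin arrays, against 6.23 and 6.47 on the control arrays. Rapamycin replicate 1 lay between the control values, while replicate 2 lay 1.18 below the control mean, so the groups overlapped. The mean was 5.72 ± 0.78 with rapamycin and 6.35 ± 0.17 in controls (SD, n = 2 each), and the log2 fold change of -0.63 (SE 0.29, 95% interval -1.28 to 0.02) had an adjusted p of 0.337 in limma. Without rapamycin replicate 1 it was -1.18 (adjusted p = 0.00229), and without rapamycin replicate 2 it was -0.08. The other 6 core subunits, which carry the electron path from NADH to ubiquinone, had log2 fold changes from -0.20 for NDUFS3 to 0.08 for NDUFS8, with a median over all 7 of -0.12.

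The 8 NDUFAF assembly factors of complex I had a median log2 fold change of -0.08, with 6 below 0. NDUFAF1, which acts in the assembly of the membrane arm, was the lowest: 6.12 and 5.82 log2 units with rapamycin, against 6.21 and 6.30 in controls (-0.29, adjusted p = 0.36). NDUFAF6 was the highest, with 7.67 and 7.32 with rapamycin, against 7.19 and 7.47 in controls (0.16, adjusted p = 0.633). The groups overlapped for NDUFAF6 and were apart for NDUFAF1. All 8 factors differed more between the rapamycin arrays than between the control arrays, against 59.6% of all genes and 76.4% of members. The same held for all 8 accessory subunits of complex III.

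Complex II, succinate dehydrogenase, also belongs to the tricarboxylic acid cycle. Its 7 members had a median log2 fold change of -0.02, with both rapamycin arrays below both controls in 3 and above them in 0, against 21.9% and 24.8% of all genes. The median lay between -0.15 (without control replicate 2) and -0.04 (without rapamycin replicate 1) when 1 array was left out. SDHB, the iron-sulfur subunit, had 8.60 and 8.64 log2 units with rapamycin, against 8.94 and 8.92 in controls. The replicates of SDHB were close together in both groups, and the log2 fold change was -0.32 (SE 0.08, adjusted p = 0.0956), or 1.25-fold lower. Of the membrane anchors, SDHC had 8.22 and 8.20 with rapamycin, against 7.97 and 8.22 in controls (log2 fold change 0.11, adjusted p = 0.658), and SDHD had a log2 fold change of 0.02. Among the assembly factors SDHAF4, which assists the maturation of the flavin subunit, had 6.54 and 6.51 with rapamycin, against 6.94 and 6.80 in controls (log2 fold change -0.34, adjusted p = 0.186). SDHAF1, which acts in the iron-sulfur maturation of SDHB, was the highest factor at 0.00.

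Complex III, ubiquinol-cytochrome c reductase, had 12 of 16 members with a log2 fold change below 0 and a median of -0.11, which was -0.03 without rapamycin replicate 1. The groups overlapped in 12 of 16 members, against 53.3% of all genes tested. CYC1, cytochrome c1, had 8.87 and 9.14 log2 units with rapamycin, against 8.90 and 9.04 in controls (log2 fold change 0.04, adjusted p = 0.912). UQCRB, a subunit near the ubiquinone site, had 6.98 and 6.37 with rapamycin, against 6.81 and 7.22 in controls (log2 fold change -0.34, adjusted p = 0.464). Rapamycin replicate 1 of UQCRB lay between the controls and replicate 2 below them. UQCR10 was the only subunit of complex III below both controls on both rapamycin arrays (log2 fold change -0.21, adjusted p = 0.285), and UQCR11 had the highest log2 fold change, with 7.47 and 7.75 with rapamycin, against 7.37 and 7.47 in controls (0.19, adjusted p = 0.482). Of the assembly factors, UQCC6 was the lowest (log2 fold change -0.27, adjusted p = 0.335) and UQCC5 the highest (0.12, adjusted p = 0.661).

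UQCRH, the hinge protein of complex III, and UQCRHL, a near-identical gene copy, have values that can mix. UQCRH had 6.54 and 6.08 log2 units with rapamycin, against 6.44 and 6.73 in controls (log2 fold change -0.27, adjusted p = 0.487), and UQCRHL stood at -0.07 (adjusted p = 0.768). Both were lower on rapamycin replicate 2 than on replicate 1. How probes that match several genes were treated is not given in the sources used here.

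Complex IV, cytochrome c oxidase, held the member with the lowest adjusted p, COX5B. Of 21 members tested 15 had a log2 fold change below 0, and the median was -0.11, with -0.15 for the 11 subunits and -0.06 for the 10 assembly factors. Without control replicate 2 the median over all 21 was -0.06. COX5B, a subunit on the matrix side, had 8.41 and 8.54 log2 units with rapamycin, against 8.84 and 8.85 in controls. The control values of COX5B nearly coincided and both rapamycin values were lower. The log2 fold change was -0.37 (SE 0.08, adjusted p = 0.0755), or 1.29-fold lower. COX7B, a small membrane subunit encoded on the X chromosome, had 10.17 and 10.42 with rapamycin, against 10.60 and 10.74 in controls (log2 fold change -0.38, SE 0.09, adjusted p = 0.0953). With each array centred on its median COX7B passed the test (-0.41, adjusted p = 0.0443). The log2 fold change was -0.33 for COX6C (adjusted p = 0.266) and -0.18 for COX8A (adjusted p = 0.305), and neither overlapped between the groups.

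**Figure D2:**
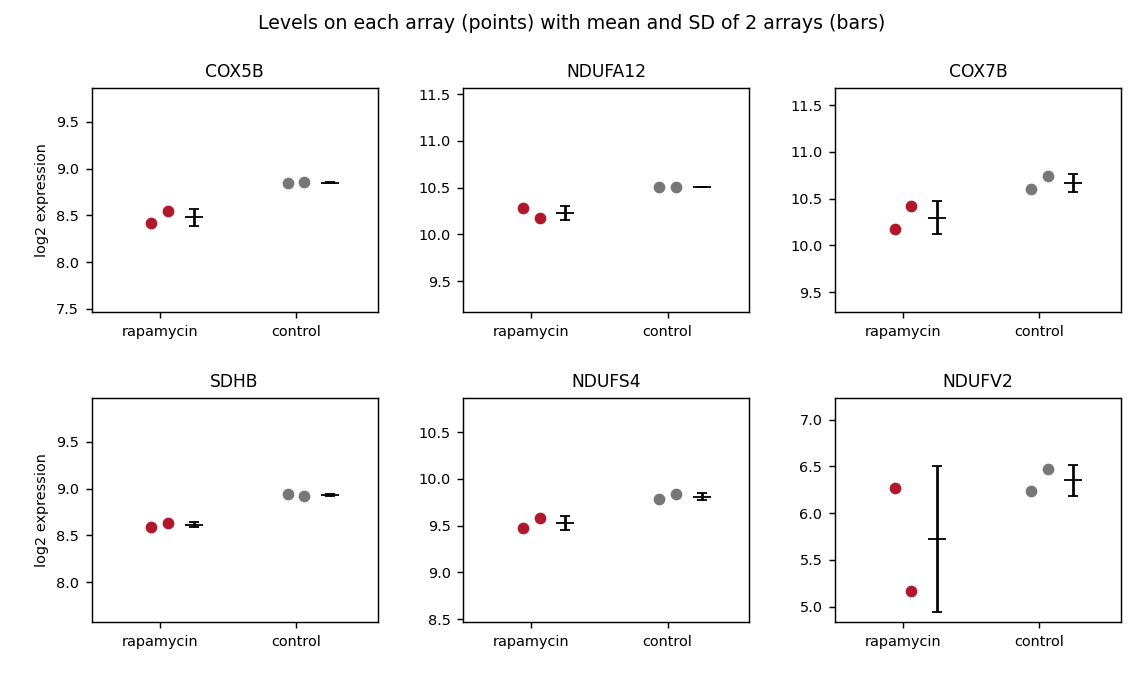
Log2 expression on each array (points) is plotted for the 5 members with the lowest p and for NDUFV2, rapamycin left and control right, with the mean and SD of 2 arrays beside them, on axes of equal span. In COX5B, NDUFA12, COX7B, SDHB and NDUFS4 both rapamycin points lie below both control points, while NDUFV2 has 1 rapamycin point at 6.27, between the controls, and 1 at 5.17.

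Several subunits of complex IV exist as isoforms that differ by tissue, and 4 muscle or testis forms gave too little signal to be tested. COX7A1, COX6B2, COX7B2 and COX8C missed the filter, with means of 3.93, 4.23, 3.23 and 4.07 log2 units on the rapamycin arrays, against 4.12, 4.35, 3.34 and 4.13 on the control arrays; the other 106 members passed it. COX6A2, the heart and skeletal muscle form of subunit VIa, passed it and had the highest log2 fold change of all members: 5.60 and 5.34 with rapamycin, against 5.08 and 5.18 in controls (0.34, SE 0.15, adjusted p = 0.297). The groups of COX6A2 did not overlap, and the rapamycin values differed by 0.26. COX4I1, the common form of subunit IV, had 10.11 and 10.35 with rapamycin, against 10.17 and 10.24 in controls (log2 fold change 0.03, adjusted p = 0.923), and COX4I2, the form induced by low oxygen, stood at -0.01 (adjusted p = 0.976). COX6B1 and COX7A2, the common forms, stood at -0.15 and -0.17 (adjusted p = 0.495 and 0.582).

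The COX-numbered assembly factors supply heme A (COX10, COX15) and copper (COX11, COX17, COX19) or act on the membrane subunits (COX14, COX16, COX18, COX20). COX11 was the lowest: 6.37 and 5.84 log2 units with rapamycin, against 6.48 and 6.42 in controls (log2 fold change -0.35, SE 0.17, adjusted p = 0.371). Most of that difference came from rapamycin replicate 2, and the log2 fold change was -0.08 without it. COX19 was the highest, with 6.58 and 6.52 with rapamycin, against 6.21 and 6.35 in controls (0.26, adjusted p = 0.323), and its groups were apart. COX7A2L, which joins complexes III and IV in supercomplexes, had 10.44 and 10.28 with rapamycin, against 10.53 and 10.45 in controls (-0.13, adjusted p = 0.464). COXFA4, the subunit once named NDUFA4 and now assigned to complex IV, falls outside the symbol rule. Its log2 fold change was -0.21 (adjusted p = 0.517), and that of COXFA4L2 was -0.12 (adjusted p = 0.718).

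Complex V, the ATP synthase, had a median log2 fold change of -0.03 over 18 members, with 11 below 0. The sign of that median depended on 1 array: it was 0.04 without rapamycin replicate 1, and -0.06 without rapamycin replicate 2. ATP5IF1, which inhibits the enzyme when it would run in reverse and break down ATP, had 6.60 and 6.83 log2 units with rapamycin, against 7.02 and 7.13 in controls. Both rapamycin values were below both controls, and the log2 fold change was -0.36 (SE 0.12, adjusted p = 0.189), or 1.29-fold lower. The catalytic subunit ATP5F1B had 12.52 and 12.56 with rapamycin, against 12.64 and 12.64 in controls (log2 fold change -0.10, SE 0.06, adjusted p = 0.43). That difference was small with tight replicates in both groups. ATP5F1D, of the central stalk, had 9.82 and 10.00 with rapamycin, against 9.64 and 9.77 in controls (log2 fold change 0.20, adjusted p = 0.305). ATP5MG, a membrane subunit with a near-identical copy (ATP5MGL), had the highest log2 fold change, from values of 5.33 and 5.41 with rapamycin, against 5.02 and 5.15 in controls (0.28, adjusted p = 0.371). ATP5MF was the lowest subunit at -0.17 (adjusted p = 0.702), with 7.87 and 8.40 with rapamycin, against 8.11 and 8.49 in controls; these groups overlapped.

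Members varied more between the rapamycin arrays than between the control arrays. The median absolute difference was 0.17 log2 units between the rapamycin arrays and 0.09 between the control arrays, while over all genes tested it was 0.13 and 0.09. The rapamycin pair was the wider in 81 of 106 members (76.4%), against 59.6% of all genes. With each array centred on its median it was the wider in 68 members, and after a repeated quantile normalization in 82. No share over all genes is given here for these 2 scalings. When centred, the members' medians were 0.16 for the rapamycin pair and 0.11 for the control pair. After repeated quantile normalization they were 0.18 and 0.08. The rapamycin pair had a median of 0.13 over all genes in both scalings. The median absolute difference of the rapamycin pair was 0.17 in complex I, 0.04 in complex II, 0.20 in complex III, 0.18 in complex IV and 0.11 in complex V. For the control pair these medians were 0.06, 0.08, 0.10, 0.10 and 0.09 in the same order of complexes. Complex II went the other way, with the rapamycin pair the wider in 3 of 7 members. A difference over 0.3 was found in 17 members between the rapamycin arrays (16.0%, against 14.2% of all genes) and in 4 between the control arrays (3.77%, against 8.02%).

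**Figure D3:**
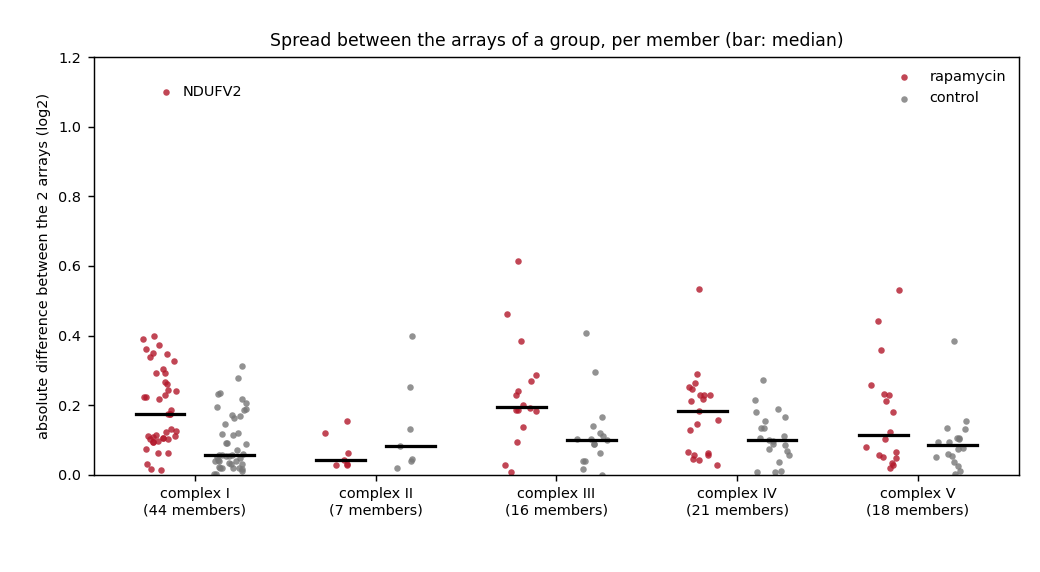
Absolute difference in log2 units between the 2 rapamycin arrays (red) and the 2 control arrays (grey) for each member tested, by complex, with the median as a bar. NDUFV2 stands alone above 1, and the medians of complex I are 0.17 for rapamycin and 0.06 for control.

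The rapamycin arrays differed in both directions. Of the 17 members with a difference over 0.3, 11 were higher on rapamycin replicate 2 and 6 were lower there. Those lower were NDUFV2, UQCRB, COX11, UQCRH, NDUFAF6 and NDUFAF1, with NDUFV2 at -1.10 (a 2.14-fold difference) and UQCRB next at -0.61. NDUFV2 was the 1 member beyond 1 log2 unit, among 18 such genes in all, and ranked at 12 of 15099 genes tested by absolute difference. Of 3491 genes within 0.5 log2 units of its mean level, 5 differed by at least as much, NDUFV2 included, and the median difference over the 3491 was 0.15. NDUFV2 was singled out with this difference already known, so its rank and this count are descriptions only. Those higher on replicate 2 were led by ATP5MF at 0.53, ATP5MGL at 0.44 and NDUFB11 at 0.40.

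Subunits were mostly higher on rapamycin replicate 2 than on replicate 1, while the share of assembly factors was closer to that of all genes. Replicate 2 was the higher in 58 of 78 subunits tested (74.4%) and in 11 of 28 assembly factors (39.3%), against 48.2% of all genes. The subunits ran the same way between the control arrays. Control replicate 2 was higher than control replicate 1 in 57 of 78 subunits and 15 of 28 assembly factors, against 7829 of 15099 genes. In the accessory subunits of complex I that count was 23 of 29. Within complex IV rapamycin replicate 2 was the higher of its pair in 8 of 11 subunits and 2 of 10 assembly factors. Within complex I it was the higher in 23 of 29 accessory subunits and 3 of 8 assembly factors, while in complex III it was the higher in 5 of 6 assembly factors. With each array centred on its median it was the higher in 55 subunits and 11 assembly factors, against 43.6% of all genes. After a repeated quantile normalization it was the higher in 60 and 12, against 49.5% of all genes. Set against the control mean, 81 members were lower on rapamycin replicate 1, with a median of -0.09, and 60 on rapamycin replicate 2, with a median of -0.04. Over all 15099 genes tested these counts were 7235 and 7202. These are descriptions of the arrays without a test.

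**Figure D4:**
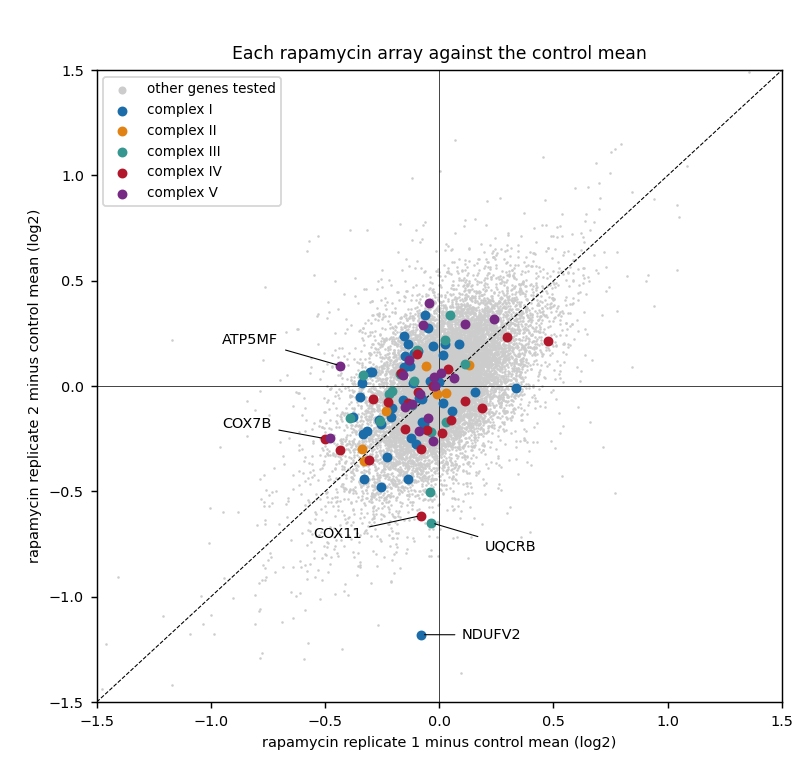
Each gene tested is placed by its value on rapamycin replicate 1 (horizontal) and replicate 2 (vertical) minus the control mean in log2 units, with members coloured by complex, other genes in grey and equality as the dashed line. Genes beyond 1.5 on either axis are not drawn, and NDUFV2, UQCRB and COX11 lie far below the line while ATP5MF lies above it.

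Other genes of respiratory chain biogenesis gave no call either. Of 39 assembly and biogenesis factors outside the symbol rule, 0 rose and 0 fell in limma, and the median log2 fold change was 0.04. The lowest was TMEM126A, an assembly factor of complex I, with 7.64 and 7.76 log2 units with rapamycin, against 7.98 and 8.04 in controls (-0.31, adjusted p = 0.159), and the highest was TMEM186 (0.21, adjusted p = 0.481). At an unadjusted p under 0.05, 2 of the 39 were lower and 0 higher, against 8.24% and 7.19% of all genes.

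Among 17 tested regulators of respiratory chain transcription, 0 passed, with a median log2 fold change of -0.06. PPRC1, a coactivator related to PGC-1alpha, was the highest: 8.44 and 8.51 log2 units with rapamycin, against 8.11 and 8.12 in controls (0.36, adjusted p = 0.083). SLIRP, which with LRPPRC stabilises mitochondrial messenger RNA, was the lowest: 8.85 and 8.87 with rapamycin, against 9.13 and 9.33 in controls (-0.37, adjusted p = 0.0869). The groups did not overlap for either gene, and the differences had opposite signs. At an unadjusted p under 0.05, 3 regulators were higher and 1, SLIRP, was lower, against 7.19% and 8.24% of all genes. Those higher were PPRC1, the mitochondrial DNA helicase TWNK (log2 fold change 0.24, adjusted p = 0.216) and the mitochondrial transcription factor TFB2M (0.20, adjusted p = 0.227), whose groups did not overlap. The log2 fold change was -0.15 for YY1 (adjusted p = 0.484), -0.22 for NRF1 (adjusted p = 0.375) and 0.09 for GABPA. It was -0.09 for TFAM, which packages mitochondrial DNA and starts its transcription. PPARGC1A, which encodes PGC-1alpha, missed the filter, with 3.23 and 3.01 with rapamycin, against 3.34 and 3.35 in controls.

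Of 28 genes of the mitochondrial outer membrane and import machinery, 0 passed (median log2 fold change -0.05), with 4 lower and 0 higher at an unadjusted p under 0.05. Over all genes tested, 8.24% were lower and 7.19% higher at that p. TIMM17A, of the inner membrane import channel, was the lowest (-0.34, adjusted p = 0.113) and the channel VDAC1 the highest (0.26, adjusted p = 0.377). Of 14 genes of the tricarboxylic acid cycle, 0 passed (median -0.07), with 1 lower and 0 higher at an unadjusted p under 0.05, from IDH3B at -0.22 (adjusted p = 0.315) to IDH3A at 0.17 (adjusted p = 0.37).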

How the data were processed

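The deposited table holds log2 expression values, 1 per row and array, for 4 single-channel arrays. The tools listed, per the submitters' processing notes, are RMA and Partek, with neither version nor role given, and per the labels' protocols whole-transcript amplified, biotin-labelled DNA was hybridised. The number of arrays limits the precision. Each row ID is an Entrez gene number, as all 24244 rows of the platform annotation bear out. RefSeq (GRCh38.p14) named 24839 of 25582 rows, the platform annotation another 49, and 694 had no name. Of the 110 members, 3 were named through RefSeq alone. The values of 1 member enter the counts and medians but are not reported here.

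Named rows with a mean at or above the 40th percentile (4.86) were fitted with limma 3.58.1 (R 4.3.3), group as the only term and eBayes with trend = TRUE. All p-values are two-sided, with Benjamini-Hochberg adjustment over 15099 genes. Where a symbol had several rows, the one with the highest mean was used. Log2 fold changes are rapamycin minus control. The fit was tested on simulated data with equal spread in both groups. That test does not cover the wider spread between the rapamycin arrays. Groups follow the agent labels. Whether same-numbered arrays were prepared as pairs is not known. The correlation of their deviations over all genes tested (-0.03) cannot decide it. Named are, for each complex, the highest and lowest subunit and assembly factor, the 5 members with the widest rapamycin difference, listed isoforms, and the extremes of each pathway list. Other members were named after their values were seen. Members, lists and tests were chosen with earlier results of these data known.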

Additional observations from a re-analysis of the deposited data

How the results depend on the processing

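With 0 members called in either direction by limma, the count was also 0 with no filter on low values, with the filter at the 60th percentile, without the mean-variance trend, with robust moderation, after a repeated quantile normalization, among protein-coding genes alone and with the mean of all rows of a gene. It was 1 lower (COX7B) with each array centred on its median (adjusted p = 0.0443) and 1 lower (COX7B) with the replicate block (adjusted p = 0.0248). The arrays share only a replicate number. Without each array in turn, 0 to 7 members were lower and 0 to 1 higher. At an unadjusted p under 0.05, 14 members were lower and 3 higher in the main fit, where 8.24% and 7.19% of all genes were. The member counts were 19 and 0 when centred, 16 and 1 after repeated quantile normalization, and 16 and 1 with the block. No share over all genes at that p is given here for these 3 settings. Centring also moved the median log2 fold change of all genes, from 0.012 to -0.019. The 190 genes called in all became 57 with no filter, 17 without the trend, 332 when centred, and 316 with the block. Leaving out rapamycin replicate 1 gave 1379, leaving out rapamycin replicate 2 gave 309 and leaving out control replicate 2 gave 85. The median log2 fold change of all members was -0.10 to -0.04 over all settings.

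Without each array, the median was -0.124 to -0.0395 for complex I (-0.07) and -0.0601 to 0.0389 for complex V (-0.03), which changed sign without rapamycin replicate 1. The median of complex II (-0.023) was -0.0539 when centred and -0.0556 after repeated quantile normalization, and -0.153 to -0.037 without each array. That of complex III (-0.11) was -0.104 to -0.0304 without each array. That of complex IV (-0.105) was -0.107 with no filter, -0.119 with the filter at the 60th percentile, -0.136 when centred, -0.0778 after repeated quantile normalization, and -0.104 to -0.0626 without each array. The cause was not tested.

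Of 26 members named by the rule and tested, 7 changed sign in at least 1 setting, none of them called. COX4I1 was -0.00283 when centred and -0.10 to 0.15 without each array. The ranges without each array were -0.43 to 0.10 for ATP5MF, -0.0618 to 0.0344 for COX4I2, -0.10 to 0.17 for CYC1, -0.00867 to 0.34 for NDUFAF6, -0.034 to 0.0274 for SDHAF1 and -0.0125 to 0.24 for SDHC.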
